A study of Mus musculus with 572 samples.

Results

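The cells described here were the 50 single medullary thymic epithelial cells (mTECs) with the highest keratinocyte-marker score, 8.74% of all cells of the 8 batches. The score was the mean normalized value of 7 genes, Krt77, Sprr1a, Spink5, Krt10, Krt1, Ivl and Lor, so the cells were chosen by these values and the levels of the 7 genes in them are a description. All cells came from neonatal C57BL/6 thymus and had been sorted as mTEC-high, that is, as living EpCAM+ cells without CD45 or Ly51 and with high MHC class II. EED-cKO cells came from EED-flox mice crossed with Foxn1-Cre, with 87 and 76 cells in batches 3 and 4 (day 4) and 63 and 77 in batches 8 and 9 (day 3). Aire/EED-dKO cells came from mice that carried the same alleles and also lacked Aire, all at day 4, with 88, 76, 38 and 67 cells in batches 1, 2, 6 and 7. Both genotypes therefore lacked EED in the thymic epithelium, and no cell with intact EED was analysed here. Foxn1 drives Cre in the thymic epithelium. The labels name neither animals nor their sex, so each genotype is 1 sample, genotypes and batches cannot be told apart, and no test between cells was made.

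EED is a core subunit of PRC2, the complex that places the repressive mark H3K27me3 on histones. AIRE lets mature mTECs express a large set of genes of peripheral tissues, which exposes developing T cells to self-antigens. Part of the mTECs also take on programs of peripheral cell types, among them skin keratinocytes, and are known as mimetic cells. In the epidermis, keratinocytes switch from basal keratins such as Krt5 and Krt14 to Krt1, Krt10 and Krt77, and then build a cornified envelope from loricrin (Lor), involucrin (Ivl) and small proline-rich proteins such as Sprr1a. Spink5 encodes LEKTI, an inhibitor of the skin kallikreins.

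Of the genes of the score, Krt77 and Krt1 lie among the type II keratin genes of chromosome 15. Sprr1a, Ivl and Lor lie in the epidermal differentiation complex of chromosome 3. Krt76, a keratin next to Krt77, was not in the score and was higher in the chosen cells. Promoter sequences are shown for Krt76 and for 3 genes of the score. They are the reference windows of RefSeq on GRCm38.p6, from 250 bases before to 50 bases after the start of the gene, and are printed 5′ to 3′ on the strand of the gene. All 4 genes are on the minus strand. The windows are chr15:101869656-101869955 for Krt77, chr15:101892871-101893170 for Krt76, chr3:92485832-92486131 for Sprr1a and chr3:92573686-92573985 for Ivl. Capitals mark matches on either strand to the AP-1 motif TGANTCA or to the TATA motif TATAAA.
Krt77: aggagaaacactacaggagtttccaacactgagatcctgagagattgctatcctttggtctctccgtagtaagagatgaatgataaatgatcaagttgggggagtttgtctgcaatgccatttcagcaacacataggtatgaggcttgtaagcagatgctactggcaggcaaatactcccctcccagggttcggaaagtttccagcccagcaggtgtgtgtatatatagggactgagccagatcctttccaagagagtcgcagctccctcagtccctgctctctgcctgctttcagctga
Krt76: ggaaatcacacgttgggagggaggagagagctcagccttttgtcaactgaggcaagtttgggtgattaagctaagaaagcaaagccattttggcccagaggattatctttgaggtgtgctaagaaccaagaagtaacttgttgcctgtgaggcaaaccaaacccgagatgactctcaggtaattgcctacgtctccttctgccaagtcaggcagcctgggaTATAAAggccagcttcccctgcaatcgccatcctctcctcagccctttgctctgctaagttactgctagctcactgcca
Sprr1a: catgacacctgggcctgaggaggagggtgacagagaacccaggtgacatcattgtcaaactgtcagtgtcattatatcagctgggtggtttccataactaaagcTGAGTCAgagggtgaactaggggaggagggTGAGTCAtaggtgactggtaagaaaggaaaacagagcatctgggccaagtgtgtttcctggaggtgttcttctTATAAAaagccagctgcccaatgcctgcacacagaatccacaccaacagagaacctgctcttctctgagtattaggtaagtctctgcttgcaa
Ivl: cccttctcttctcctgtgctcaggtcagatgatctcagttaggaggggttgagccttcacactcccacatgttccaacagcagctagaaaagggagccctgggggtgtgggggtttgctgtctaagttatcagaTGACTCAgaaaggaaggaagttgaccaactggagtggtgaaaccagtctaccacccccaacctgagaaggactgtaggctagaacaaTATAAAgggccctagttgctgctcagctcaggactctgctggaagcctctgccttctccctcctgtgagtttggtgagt
The Sprr1a window held 2 AP-1 matches, which began at positions −146 and −116 from the start, and the Ivl window held 1, which also began at −116. A TATA match began at −43 in Sprr1a and at −29 in Ivl and Krt76. The Krt77 window held neither of these exact matches. It does contain the letters tatatata, and other forms of the TATA motif were not searched. None of the 4 windows held the grainyhead motif AACCGGTT. Over all 32851 promoter windows of this length, 7.81% held the AP-1 motif, 13.6% the TATA motif and 0.146% the grainyhead motif. These matches describe letters and are not evidence of binding.

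Of the 50 cells, 44 were EED-cKO and 6 were Aire/EED-dKO. Their share was 14.5% in EED-cKO (exact 95% binomial interval 10.8 to 19) and 2.23% in Aire/EED-dKO (0.823 to 4.79). These intervals cover counting error over cells only. In EED-cKO the cells came from every batch, with 14 of 87 cells in batch 3, 10 of 76 in batch 4, 9 of 63 in batch 8 and 11 of 77 in batch 9. Their share thus lay between 13.2% and 16.1% at both ages. In Aire/EED-dKO, 5 of 88 cells came from batch 1 and 1 of 67 from batch 7. Batch 2 gave 0 of 76 cells, which allows a share of up to 3.95%, and batch 6 gave 0 of 38 cells, which allows up to 7.89%. These limits are 3 cells over the number of cells, and the exact 95% binomial upper limits are 4.74% and 9.25%.

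The cell of rank 1 was an Aire/EED-dKO cell of batch 1 with a score of 1.29, and the next was an EED-cKO cell of batch 8 with 1.16. The cell of rank 50 scored 0.336 and the first cell left out scored 0.335, so no gap separated the chosen cells from the remaining ones. The median score was 0.529 in the 44 EED-cKO cells and 0.026 in the remaining cells of this genotype. Both cells at this border were EED-cKO cells of batch 4, the inner one with Krt77 and the outer one with Sprr1a as the strongest marker.

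**Figure D1:**
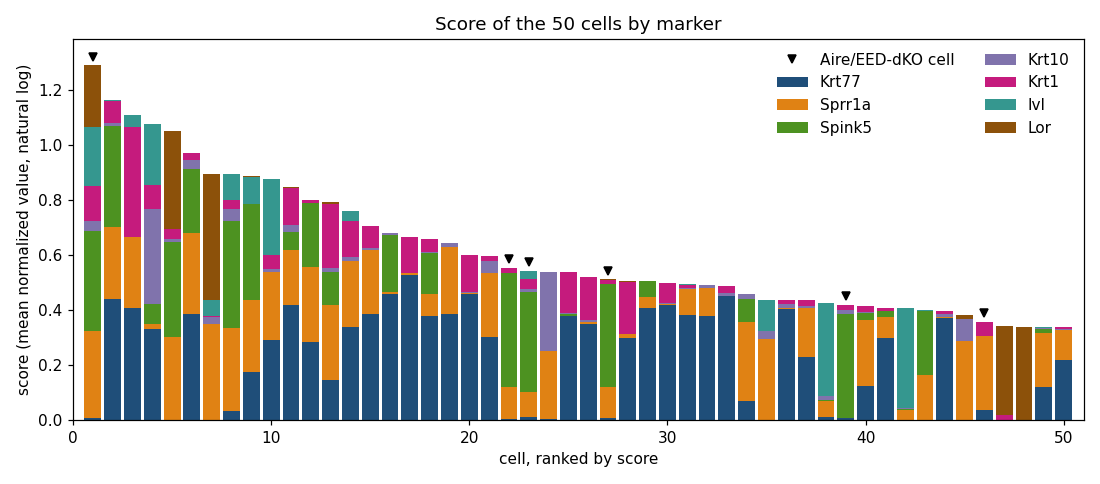
Score of each of the 50 cells in rank order on the x axis, with the height of each colour on the y axis giving the share of the mean normalized value (natural log) that came from 1 of the 7 genes. Triangles mark the 6 Aire/EED-dKO cells, and most bars are dominated by 1 to 3 colours, with Krt77 the strongest marker in 27 cells.

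The 7 markers appeared together only in part. Krt77 was the strongest marker in 27 of the 50 cells, Spink5 in 8, Sprr1a in 7, Lor in 4, Krt10 in 2, Ivl in 2 and Krt1 in 0. A level above 100 CPM (reads per 1000000 reads) was reached by Krt77 in 32 cells, by Sprr1a in 29, by Spink5 in 15, by Krt1 in 10, by Ivl in 6, by Lor in 5 and by Krt10 in 2. Of the 50 cells, 16 had 1 marker above 100 CPM, 22 had 2 and 12 had 3 or more, and 0 had all 7. The commonest pair was Krt77 with Sprr1a, in 17 cells, followed by Sprr1a with Spink5 in 11. Krt1 and Krt10, which encode keratins that pair with each other in the epidermis, exceeded 100 CPM together in no cell. At the lower cutoff of 5 reads, 41 of the 50 cells held 3 or more of the markers, while 20.5% of the remaining EED-cKO cells (53 cells) and 3.42% of the remaining Aire/EED-dKO cells (9 cells) did so. The name keratinocyte-like therefore went with the data only in part, and the cells are called high-scoring cells below.

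Per kb of exon, Sprr1a was the most abundant of the 7 in the summed EED-cKO high-scoring cells, at 347 CPM per kb, and Krt77 was second. Lor had 53, Ivl 43.7, Spink5 28.7, Krt1 22.3 and Krt10 15.8 CPM per kb. In CPM, Krt77 had a median of 713 per cell and a highest value of 3854, and its summed level was 761, 1057, 907 and 729 in batches 3, 4, 8 and 9 against 35.8, 16.01, 5.14 and 8.98 in the remaining cells. Lor was carried by few cells. It had at least 5 reads in 5 of the 44 cells, and its summed level was 268.8 and 124.6 CPM in batches 3 and 8 but 0.287 and 0.321 CPM in batches 4 and 9. Ivl, with 10 such cells, was high in 3 of the 4 batches, with log2 ratios of 3.33, 7.17 and 8.65 in batches 3, 4 and 8 and of −0.20 in batch 9.

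For the other genes, reads were summed over the 44 high-scoring and the remaining EED-cKO cells, and a log2 ratio was taken with 0.1 CPM added. A gene counts as higher or lower here when the ratio was at least 2-fold and had the same sign in all 4 batches. Of 29858 genes with a ratio, 676 (2.26%) counted as higher and 2200 (7.37%) as lower, and the median log2 ratio was −0.07. The high-scoring cells had fewer reads in batches 3, 8 and 9 and more in batch 4, with a median of 1035778 (216139 to 1840131) against 1268218 (335313 to 2419312). At 200000 reads per cell they held a median of 11894 genes (9868 to 14106) against 12156 (7810 to 15217). The medians differed by −300, 345, −884 and −165 genes in batches 3, 4, 8 and 9.

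Of 77 genes in 6 lists, 25 (32.5%) counted as higher and 0 as lower, against 2.26% and 7.37% of all genes, and the median log2 ratio was 1.39. Since the cells were chosen for 7 genes of the same program, these values describe them and do not test the label. The batch medians were 0.95, 0.78, 1.00 and 1.43 in batches 3, 4, 8 and 9, beside −0.15, −0.25, −0.36 and −0.21 over all genes. The summed level of the 77 genes was 6711, 7220, 6940 and 7768 CPM in the high-scoring cells of these batches and 4049, 4150, 4157 and 3983 CPM in the remaining cells. At equal reads, a high-scoring cell held a read of a median of 37.5 of the 77 genes (26 to 60) and a remaining cell of 31 (15 to 47), so the ranges overlapped widely.

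The other keratins of stratified epithelia had the highest list median in the summed cells, though not in batch 3, where it was 1.85 against 2.59 for the cornified envelope. All 10 had a positive log2 ratio with a median of 2.77. Of these, Krt76, Krt4, Krt78 and Krt2 (40%) counted as higher and 0 as lower, against 2.26% and 7.37% of all genes. Krt76, a keratin of the palate, was at 112.3, 140.4, 173.9 and 159.8 CPM in batches 3, 4, 8 and 9 against 11.2, 11.6, 20.8 and 8.5 CPM in the remaining cells, a log2 ratio of 3.50. It had 5 or more reads in 30 of 44 cells (68.2%) and in 15.1% of the remaining cells. Krt4, a keratin of the esophagus and oral mucosa, was at 164.5, 134.7, 26.7 and 171.1 CPM against 2.98, 16.8, 0.621 and 20.3 CPM, a log2 ratio of 3.66. Each batch of high-scoring cells lay above every batch of remaining cells for both genes. The epidermal keratin Krt2 had a larger log2 ratio of 4.93, but only 8 of 44 cells held 5 reads, and 44.8% of its reads came from 1 cell. Krt6a, Krt6b and Krt16, keratins of wounded and hyperproliferative skin, had log2 ratios of 3.23, 2.74 and 1.86 and did not have the same sign in every batch.

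Krt77, Krt76, Krt4, Krt79, Krt78 and Krt2 are neighbours among the type II keratin genes of chromosome 15 (101347444 to 102032027, mm10), a region that was chosen after its values were seen. Apart from Krt77 and Krt1, 32 genes of it had a ratio, with a median log2 ratio of 1.40. Of these, 6 (18.75%) counted as higher and 0 as lower, against 2.26% and 7.37% of all genes. The 6 were Krt74, Krt2, Krt76, Krt4, Krt79 and Krt78. In the same region Krt5, the basal keratin, had no common direction, at 343.6, 515, 210.9 and 229.6 CPM against 289.9, 325.6, 372.5 and 331.5 CPM in batches 3, 4, 8 and 9 (log2 ratio 0.06). The following shares are a description, since Krt77 is a gene of the score and the limit of 100 CPM was also chosen after values were seen. Among the 32 EED-cKO high-scoring cells with Krt77 above 100 CPM, 15 (46.9%) also had Krt76 above 100 CPM, while 1 of the 12 others did. For Krt78 it was 10 of 32 against 0 of 12, and for Hopx 14 of 32 against 2 of 12. For Krt5 it was 22 of 32 (68.75%) against 5 of 12 (41.7%). Krt1, Krt2, Krt4, Dsp, Lypd3 and Krt9 also had the larger share with Krt77, for Krt9 at 34.4% against 33.3%. The share was smaller with Krt77 for Sprr1a (53.1% against 66.7%), Sprr1b (6.25% against 25%) and Krtdap (9.4% against 25%). Spink5 (21.9% against 25%) and Krt79 (15.6% against 16.7%) went the same way. Sprr1a, Spink5 and Krt1 are also genes of the score. A chosen cell with little Krt77 had to reach its score through the other genes, so these shares depend on the choice of cells. Over all EED-cKO cells, Krt77 had Spearman correlations of 0.22 with Sprr1a, 0.20 with Spink5 and 0.33 with Krt1. Among the remaining EED-cKO cells, 3 of 9 cells with Krt77 above 100 CPM and 2.4% of the others had Krt76 above that level. Krt78, Krt5, Dsp and Krt9 also had the larger share with Krt77 there, and Sprr1a, Sprr1b and Spink5 again the smaller. The direction was the opposite there for Hopx (0% against 9.2%), Krtdap (44.4% against 10%), Krt79, Krt1, Krt2, Krt4 and Lypd3. The keratins are similar in sequence, and how many reads were shared between them was not tested.

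The genes of the cornified envelope were the next group. Of 17 genes, 8 (47.1%) counted as higher and 0 as lower, against 2.26% and 7.37% of all genes. All 17 had a positive log2 ratio (median 1.95). Sprr1b, a cross-linked envelope precursor, was at 66.7, 22.1, 107.6 and 44.9 CPM against 7.24, 0.693, 0.576 and 0.0835 CPM (log2 ratio 4.48). Cnfn, which encodes cornifelin, was at 34.7, 39.6, 51 and 36.4 CPM against 3.48, 2.08, 0.424 and 1.12 CPM (log2 ratio 4.31). For both genes the batches did not overlap, although only 12 and 9 of the 44 cells held 5 reads of them. The scaffold proteins of the envelope, periplakin (Ppl) and envoplakin (Evpl), were present in more cells and had smaller log2 ratios of 1.53 and 1.38. Dmkn, Sbsn, Scel and Rptn also counted as higher, with log2 ratios of 1.95, 1.71, 2.74 and 1.49. Filaggrin (Flg) had a log2 ratio of 3.40 with 48.7 and 176.4 CPM in batches 3 and 9 but 3.44 and 6.24 CPM in batches 4 and 8, and was not called. Krtdap, a gene of differentiating keratinocytes, had a log2 ratio of only 0.47 and batch ratios from −3.72 to 1.72.

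Loricrin, involucrin and the Sprr genes belong to the epidermal differentiation complex, taken here as chromosome 3 from 90511034 to 93564643 (mm10). Without the genes of the score, 62 genes of it had a ratio, of which 13 counted as higher and 1 as lower, with a median log2 ratio of 1.79. Its S100 genes, at both ends of the region, varied. S100a14 and S100a16 had log2 ratios of 0.01 and −0.14, and S100a11 of 0.21. S100a6 and S100a10 had 0.84 and 0.76 without a call. S100a8 and S100a9, which encode the calprotectin subunits, counted as higher with 1.503 and 1.44. In the centre, Lce1h had −3.16 without a call, and Sprr2d had 0.41. Sprr2i, Sprr2k and Sprr2b had log2 ratios of 3.90, 6.86 and 3.18, but the Sprr2 genes are near-identical copies that short reads may not separate, so these values are uncertain.

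**Figure D2:**
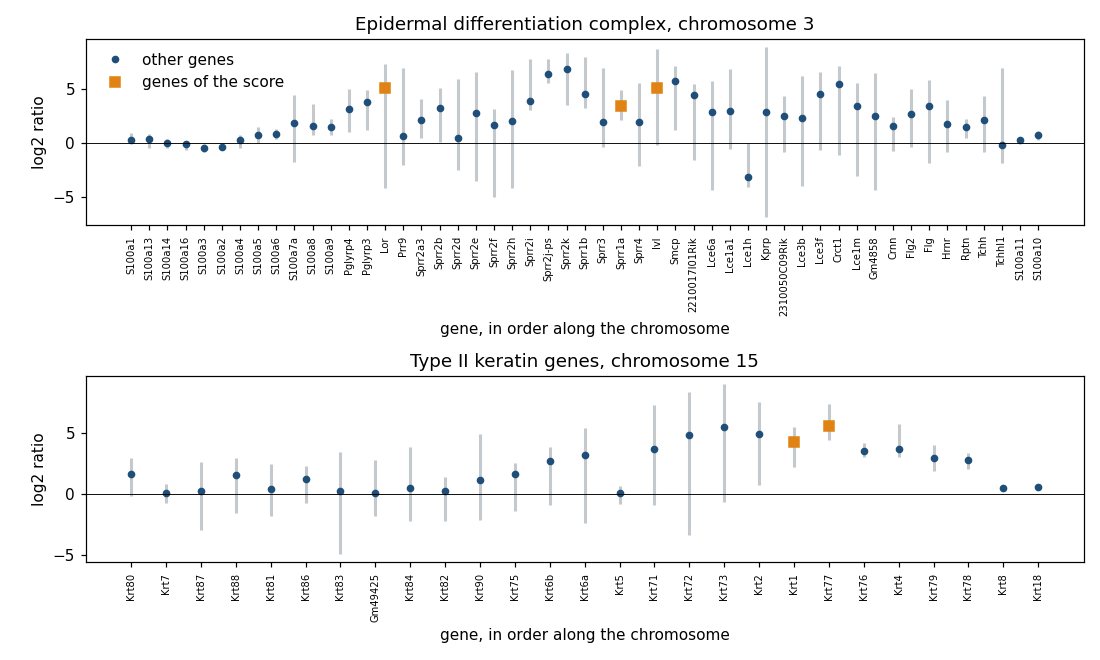
Log2 ratios of EED-cKO high-scoring over remaining cells (y axis) for protein-coding genes in order along the epidermal differentiation complex (top) and the type II keratin genes (bottom). Points are the summed cells, squares the genes of the score and vertical lines the range over the 4 batches, and Krt76 at 3.50 and Krt4 at 3.66 have lines above 0 in all 4 batches while many Sprr and Lce genes have lines that cross 0.

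Enzymes of the barrier were less uniform. Of 12 cross-linking and protease genes, Tgm5, Asprv1 and Prss8 (25%) counted as higher and 0 as lower, against 2.26% and 7.37% of all genes. The median log2 ratio was 1.11. Tgm5, a transglutaminase, was at 22.1, 11.1, 126.5 and 55.3 CPM against 15, 7.9, 10.7 and 12.7 CPM in batches 3, 4, 8 and 9 (log2 ratio 1.95). Asprv1, the protease that processes filaggrin, had a log2 ratio of 1.28, and Prss8, a membrane protease, of 1.36. The main epidermal transglutaminase Tgm1 was level with the remaining cells, at 30.9 against 31 CPM. St14, which encodes matriptase, was at 255.7 against 275.1 CPM. Of 11 barrier lipid genes, Abca12, Aloxe3, Cyp4f39 and Lipm (36.4%) counted as higher and 0 as lower, against the same 2.26% and 7.37%. Their median log2 ratio was 1.39. Cyp4f39, which makes ultra-long omega-hydroxy fatty acids, was at 24.2, 16.1, 64 and 56.7 CPM against 15.9, 6.63, 3.97 and 8.3 CPM. The ceramide synthase Cers3 had a log2 ratio of 0.30.

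None of the 14 desmosome and junction genes counted as higher or lower, against 2.26% and 7.37% of all genes, and the median log2 ratio was 0.59. Desmoplakin (Dsp) was at 954, 997, 1140 and 1074 CPM against 500, 530, 652 and 516 CPM (log2 ratio 0.92), just short of 2-fold in the sum, without overlap of the batches. Plakoglobin (Jup) had a log2 ratio of 0.81. The desmogleins Dsg1a and Dsg3 had log2 ratios of −0.33 and −0.52. Basal genes also gave no call among 8, with Krt14 at 240.4 against 241.3 CPM and Trp63, which encodes the epithelial regulator p63, at 148.4 against 177.1 CPM.

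Among 13 epidermal transcription factors, 6 (46.2%) counted as higher and 0 as lower, against 2.26% and 7.37% of all genes. The median log2 ratio was 0.55. Hopx, a homeodomain cofactor of late keratinocyte differentiation, was at 88.1, 100.6, 140.3 and 160.1 CPM against 26.5, 36.1, 20.7 and 28.3 CPM, a log2 ratio of 2.08. Zfp750 and Gata3 had log2 ratios of 1.42 each, Grhl1 and Grhl3, the grainyhead factors of the barrier, of 1.24 and 1.04, and Barx2 of 1.63. For Hopx, Grhl1, Grhl3, Zfp750 and Gata3 the values of the 4 batches of high-scoring cells all lay above those of the remaining cells. Klf4 and Ovol1 had log2 ratios of −0.31 and −0.07. The regulators were widespread in the remaining cells too, and 5 or more reads of Grhl1 were present in 83.4% of them and in 97.7% of the high-scoring cells.

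**Figure D3:**
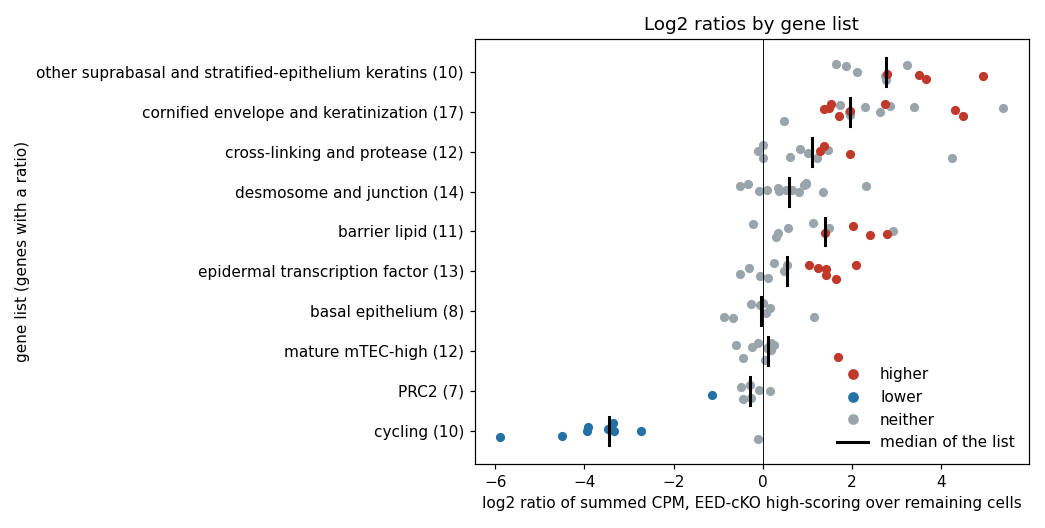
Log2 ratio of summed CPM, EED-cKO high-scoring over remaining cells (x axis), for each gene of 10 lists (y axis). Red and blue points counted as higher and lower, bars are list medians, and the medians run from 2.77 for the other keratins to −0.04 for basal genes and −3.44 for cycling genes.

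Across all genes, the 15 called genes with the largest log2 ratio among those with 5 or more reads in at least 50% of the high-scoring cells were led by Lypd3 (3.57), Krt76 (3.50), Sdr9c7 (3.11), Krt79 (2.94), Krt78 (2.78), Psapl1 (2.66), Nbl1 (2.54) and Krt9 (2.52). For Krt79, 47.6% of the reads of the high-scoring cells came from 1 cell, and its log2 ratio was 2.04 without that cell. Lypd3 encodes C4.4A, a surface protein of suprabasal squamous cells, and was at 72.8, 132.2, 85.5 and 57.8 CPM against 7.46, 5.96, 7.99 and 8.13 CPM in batches 3, 4, 8 and 9. Sdr9c7, an enzyme of the epidermal lipid barrier, was at 44.6, 59.7, 26.8 and 88.2 CPM against 4.86, 7.51, 13.7 and 1.98 CPM. Lypd3 thus reached a level 11.9-fold that of the remaining cells in the sum, and Sdr9c7 8.62-fold. Krt9 is the keratin of palms and soles. The remaining 7 were AA986860 (2.44), Lgals3 (2.43), Wfdc21 (2.43), Aqp3 (2.42), Ppp3cc (2.39), Chil1 (2.34) and Serpinb2 (2.34), among which Aqp3 is the water and glycerol channel of the epidermis. For Ppp3cc and Chil1 the share of cells with 5 or more reads was not larger in the high-scoring cells. It was 70.45% against 71.04% for Ppp3cc and 54.55% against 57.14% for Chil1. Their high-scoring cells had medians of 14.01 and 10.16 CPM and highest values of 1489.3 and 2426.6 CPM. For the others of the 15 this share was larger in the high-scoring cells, which the choice of these genes favoured. They needed 5 or more reads in at least 50% of the high-scoring cells, with no such limit for the remaining cells. In 5 of the 15 (Lypd3, Psapl1, AA986860, Ppp3cc and Serpinb2) another annotated gene overlaps, and without strand their reads cannot be told apart.

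Aire, the gene that the genotypes differ in, spanned nearly the same range in high-scoring and remaining EED-cKO cells. Its summed level was 787, 1195, 1094 and 981 CPM in the high-scoring cells of batches 3, 4, 8 and 9 and 1068, 908, 662 and 682 CPM in the remaining cells. It was thus lower in batch 3 and higher in the other 3 batches, with log2 ratios of −0.44, 0.40, 0.72 and 0.52 and of 0.26 in the sum. The lowest, median and highest cells had 6.6, 945 and 3328 CPM among the high-scoring and 3.38, 694 and 3706 CPM among the remaining cells, so the ranges overlapped almost fully. At least 100 CPM of Aire was found in 41 of 44 (93.2%, exact 95% binomial interval 81.3 to 98.6) and in 83.8% of the remaining cells (78.7 to 88.1). Across all EED-cKO cells, score and Aire gave a Pearson correlation of 0.04 and a Spearman correlation of −0.04. When the remaining cells were limited to those with little cycling-marker RNA, the log2 ratio of Aire was −0.01, without batch 3 it was 0.53, and over 31 alternatives it ran from −0.01 to 0.61.

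**Figure D4:**
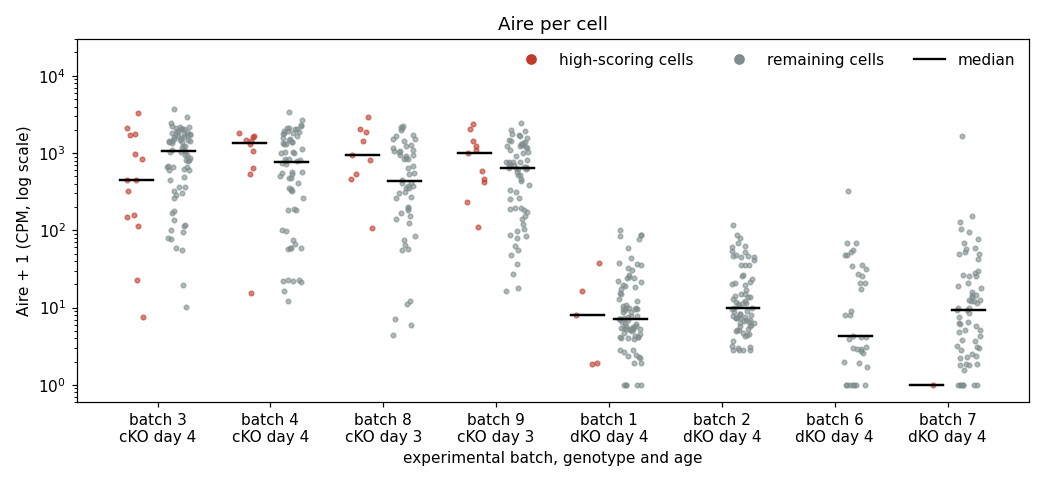
Aire per cell, in CPM plus 1 on a log axis, for high-scoring (red) and remaining (grey) cells of each batch (x axis). Lines are medians, and the EED-cKO high-scoring cells spread over nearly the same range as the remaining cells, from 6.6 to 3328 CPM.

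Within the 44 EED-cKO high-scoring cells, the number of further keratinocyte genes was highest where Aire was low. The Spearman correlation of Aire with the number of these genes at equal reads was −0.56 (Pearson −0.51, 44 cells). With the number of all genes at equal reads it was −0.48 (Pearson −0.52), so both numbers tended to be lower where Aire was higher. These values are across cells that share batches and depth, and are given without a test. The 3 cells under 100 CPM of Aire had 6.6, 14.5 and 21.9 CPM and held 51, 60 and 46 of the 77 genes. The first and the second of them had Spink5 as the strongest marker and the last Sprr1a, and all 3 were from day 4. The 27 cells led by Krt77 had 104.9 to 3328 CPM of Aire with a median of 987 and held 29 to 55 of the genes with a median of 38. The 4 cells led by Lor had 155.3 to 2093.3 CPM of Aire and held 26 to 43 with a median of 28.

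The list of mature mTEC-high genes, which includes Aire, gave 1 call. Of 12, 1 (8.33%), Cd86, counted as higher and 0 as lower, against 2.26% and 7.37% of all genes, and the list median was 0.12. The co-stimulatory gene Cd86 was at 48.9, 46.4, 135.7 and 86.1 CPM against 22.3, 15.7, 19 and 32.7 CPM (log2 ratio 1.68), while its relative Cd80 was at 128.5 against 123.4 CPM. The MHC class II genes H2-Aa, H2-Ab1, H2-Eb1 and Cd74 had log2 ratios of 0.16 to 0.19. The sort had selected for MHC class II protein. Of the 7 PRC2 genes, 1 (14.3%), Ezh2, counted as lower and 0 as higher, against 7.37% and 2.26% of all genes. Ezh2 was at 24.4, 17.7, 21.2 and 25.8 CPM against 33.2, 28.1, 65.4 and 72.7 CPM (log2 ratio −1.13). Eed was at 9.71 against 11.7 CPM. The gene counts do not separate the floxed exons from the others, so these reads do not check the deletion.

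The genes that the study terms Aire-driven, which it chose on other cells as depending on Aire in 1 cell cluster alone, were detected in larger number in high-scoring cells. The list is held here in part. It includes Aire itself and the keratinocyte genes Alox12b, Klk5, Krt13, Klk14 and Sprr3, but 0 of the 7 markers. At 200000 reads per cell a high-scoring EED-cKO cell held a read of a median of 90 of them (quartiles 70.5 and 102.2) and a remaining cell of 59 (46 and 79). The medians were 86.5, 100.0, 82 and 92 in batches 3, 4, 8 and 9 against 65, 66.5, 49 and 54.5, higher in every batch although the ranges of single cells overlapped. Among cells with at least 100 CPM of Aire, a limit chosen after the values were seen, the medians differed by 32 genes. The same genes gave a less firm picture in summed CPM. Of 431 with a ratio, 28 (6.497%) counted as higher and 26 (6.03%) as lower, against 2.26% and 7.37% of all genes, and the median log2 ratio was 0.84 in the sum but −0.21, −0.87, 0.16 and 0.22 in the batches. It was −0.69 when each gene was taken without the high-scoring cell that held most of its reads. No cell was left out on the remaining side, so this setting tends to lower all ratios, and 17.8% of all genes then counted as lower.

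**Figure D5:**
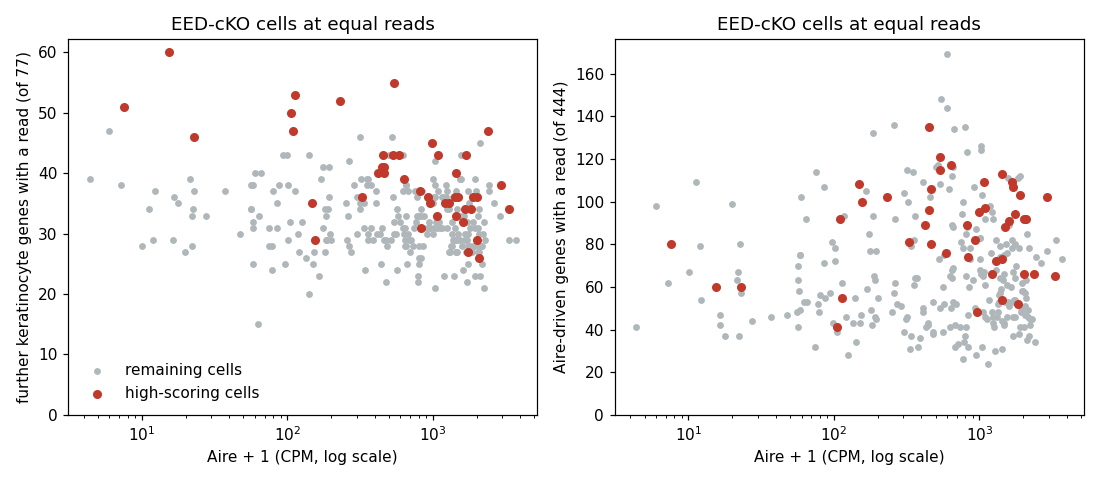
Number of further keratinocyte genes (left, of 77) and of Aire-driven genes (right) with a read at 200000 reads per cell (y axes) against Aire in CPM plus 1 on a log axis (x axes), 1 point per EED-cKO cell. High-scoring cells (red) reach 60 keratinocyte genes at low Aire and have a median of 90 Aire-driven genes against 59 in remaining cells (grey).

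Cycling genes were lower. Of 10 genes, 9 (90%) counted as lower and 0 as higher, against 7.37% and 2.26% of all genes, with a median log2 ratio of −3.44. Mki67, the proliferation marker, was at 12.8, 6.39, 46.2 and 13.6 CPM against 86.2, 72.4, 409.9 and 511 CPM. The summed level of the 10 genes had a median of 71.3 CPM per high-scoring cell (3.73 to 363) and 90.5 CPM per remaining cell (1.08 to 5624), and 52 remaining cells (20.1%) lay above the highest high-scoring cell. The difference of the medians was −1.23, 1.02, −5.4 and −109.4 CPM in batches 3, 4, 8 and 9. Against the remaining cells with low cycling RNA, the list median was 0.82 instead. Of the 15 genes with the largest ratios in this direction, Mki67 was first and the other 14 had log2 ratios from −3.48 (Ect2) to −2.29 (Islr). In 10 of those 15 another annotated gene overlaps.

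Markers of other cells were examined in the same way. In the dendritic cell and macrophage list, Lyz2, the lysozyme of myeloid cells, counted as higher, at 328, 450, 436 and 454 CPM against 267.6, 240.3, 161.8 and 123.4 CPM, and Itgax as lower, at 0.0422 against 1.1 CPM. Each was 1 of 6 genes (16.7%), against 2.26% higher and 7.37% lower of all genes. Ptprc, which encodes CD45 and was gated against in the sort, had 5 reads in 11.4% of the high-scoring and 3.86% of the remaining cells. The summed level of the 6 genes per cell had a median of 442 CPM (10.1 to 1259) against 91.3 CPM (1.03 to 2596), and its part in the keratinocyte values was not tested. Most of this level was Lyz2, since all 6 genes summed to 445, 496, 496 and 519 CPM in the high-scoring cells of batches 3, 4, 8 and 9. The median log2 ratio of the list was 0.25, with batch medians of 0.12, −1.09, 0.86 and 0.76. Thymocyte genes had a median of 13 CPM per cell (0 to 395) against 19.5 CPM (0 to 1188), and fibroblast and endothelial genes of 75.7 CPM (0 to 3098) against 60.8 CPM (0 to 7043), and none of the genes of these 3 lists was at 0 reads in the summed high-scoring cells.

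In the lists of other mimetic cells, 1 of 6 airway genes (16.7%) and 1 of 8 enterocyte and hepatocyte genes (12.5%) counted as higher, against 2.26% of all genes. The airway median log2 ratio was 1.745, above those of the barrier lipid and cross-linking lists, with batch medians from −0.03 to 2.88, and the enterocyte and hepatocyte median was 0.82. Muc5b, an airway mucin, counted as higher in the airway list, at 62.6, 22.2, 104.3 and 13.6 CPM against 6.16, 6.98, 12.4 and 4.93 CPM, and Apoa4, an apolipoprotein of enterocytes, in the enterocyte and hepatocyte list, at 55.5, 48.2, 54.8 and 62.7 CPM against 22.5, 22.3, 22 and 7.48 CPM. The tuft, microfold, myoid and ciliated lists had 0 genes that counted as higher or lower. In the neuroendocrine list Chgb counted as lower (log2 ratio −2.18), 1 of 7 genes (14.3%) against 7.37% of all genes.

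The 6 Aire/EED-dKO high-scoring cells were low in Aire like most cells of their genotype, with 0 to 37.1 CPM (median 3.96) against 0 to 1666 CPM (median 7.16). Aire transcripts of a disrupted allele cannot be told apart from intact ones in these counts, and 7 remaining cells of this genotype (2.66%) had at least 100 CPM. In 5 of the 6 cells Spink5 was the strongest marker and in 1 it was Sprr1a, while Krt77 exceeded 100 CPM in 0 of them and in 32 of the 44 EED-cKO cells. In the sum, Spink5 was at 1030 CPM and Krt77 at 10.4 CPM in the Aire/EED-dKO high-scoring cells, and at 137.3 and 865 CPM in those of EED-cKO. The 6 cells held 62, 50, 52, 48, 41 and 54 of the 77 further keratinocyte genes at equal reads, in order of their score. All lay above the median of 31 of the remaining cells, which ranged from 21 to 49, and 4 lay above its upper end. The cell of rank 1 had only 215897 reads in all.

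Because only batch 1 held 3 or more of these cells, calls in this genotype used the sign in batch 1, and with so few cells the background was high. Over all genes 13.4% counted as higher and 34.3% as lower, and the median log2 ratio was −0.38. Of the 77 further keratinocyte genes, 61 counted as higher and 4 as lower, with a median log2 ratio of 2.47. Junction genes, which gave no call in EED-cKO, counted as higher in 11 of 14 cases. Desmoplakin was at 2525.1 against 503 CPM, Tgm3 at 460.0 against 23.1 CPM, and the basal keratin Krt5 at 899 against 139.8 CPM. The desmogleins Dsg1a and Dsg1b were lower, at 97.2 against 311.5 CPM and at 30.1 against 125.4 CPM. Cd86 was at 1.8 against 49.6 CPM, the opposite direction to EED-cKO. Whether the genotypes differed in any of these values was not tested, since each is 1 sample.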

How the data were processed

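Single mTEC-high cells were sorted into wells, 1 cell per library, and measured by RamDA-seq, a full-length total RNA method without molecular identifiers. The deposited count table holds whole reads per gene. The authors trimmed reads with fastp 0.20.0, aligned them to mm10 with STAR 2.7.3a, filtered them with SAMtools 1.9, removed duplicates with Picard 2.21.1 and counted them without strand with HTSeq 0.11.2. The deposited normalized table is the natural log of counts scaled to 10000 per cell, plus 1. The authors had removed shallow cells, no further cell was removed here, and no doublet caller was run. Depth was 205703 to 2419312 reads per cell, and intervals cover counting error only.

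The score used the normalized values and every other result the counts. Reads were summed over cells for ratios, and genes needed 5 reads in at least 5 cells. Batches with fewer than 3 high-scoring cells were not used for the sign. For numbers of genes per cell, each cell was thinned to 200000 reads. Since no animals are named, no test was made. Scripts (Python 3.11.15, numpy 2.4.6, pandas 2.3.3, scipy 1.17.1, R 4.3.3) were tested on simulated data. For alternatives in scaling, edgeR 4.0.16 and DESeq2 1.42.0 were used. The members and gene lists were chosen with earlier results of these data known. Named genes were the 7 markers, Aire, Eed, examples from the lists, and, in each direction, the 15 called genes with the largest log2 ratio among those with 5 reads in at least 50% of the high-scoring (higher) or remaining (lower) cells. Genes of the 2 chromosome regions were named as the called ones and the S100 genes. Alternatives changed the number of cells, the markers in the score, the scaling, the filter, the call and the batches. A few genes that the lists or the rule would name are not reported here.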

Additional observations from a re-analysis of the deposited data

Results flagged for a closer look

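In 38 values over the 4 EED-cKO batches and 5 over the 6 Aire/EED-dKO high-scoring cells, 1 unit was looked for that stood far from the others, which chance gives in about 1 in 20 groups. The median log2 ratio of the epidermal transcription factors was 1.02 in batch 9 and at most 0.52 in the other batches. The microfold list had 1.27 in batch 9, while the other batches lay between −0.88 and −0.68. The enterocyte and hepatocyte list had −0.43 in batch 4, while the others lay between 1.40 and 1.57. The medians of summed cycling-marker RNA differed by −109.4 CPM in batch 9. The Aire/EED-dKO cell of rank 1 had a score of 1.29, and the next of this genotype had 0.553.

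For 2 lists the batches of day 4 and day 3 had opposite signs, a difference that was not tested. The thymocyte list had median log2 ratios of 0.27 and 0.33 in batches 3 and 4 (day 4) and of −1.90 and −2.59 in batches 8 and 9 (day 3). The Aire-driven genes had −0.21 and −0.87 at day 4 and 0.16 and 0.22 at day 3. Age and batch cannot be told apart in these values.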

How the results depend on the processing

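Among the alternative values of the main results, 32 moved and 3 reversed, and all others moved by less than the spread between batches or, for counts and shares, the limits set for them. Within that spread, the Aire log2 ratio ran from −0.01 to 0.61 around 0.26, the difference of median genes per cell from −625 to 47.5 (−17 without batch 8, 47.5 at day 4), and the Aire-driven median was 0.42 without batch 8. The shares of all genes that counted as higher and lower depended most on the settings. They were 1.36% and 11.4% with 30 cells, 4.73% and 3.48% with 100 cells, 6.03% and 15.2% at day 4, 9.70% and 19.4% at day 3, 13.4% and 11.7% by the ratio alone, 3.45% and 11.8% at 1.5-fold, and 0.767% and 2.39% at 4-fold. The share lower was 3.42% with 1 CPM added and 3.97% against the remaining cells with low cycling RNA, and the share higher was 1.497% with all genes that had a read. With 5 reads required in 5% of cells, 21526 genes were left, of which 514 were higher and 1339 lower, against 676 and 2200 as reported. Leaving out 1 batch at a time gave 3.56% to 4.54% higher and 10.1% to 12.8% lower. Since fewer batches must then share a sign, more genes can be called.

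The further keratinocyte genes that counted as higher numbered 40 at day 3, 48 by the ratio alone and 11 at 4-fold, and their median log2 ratio was 0.93 at day 4. It lay above 0 in all 31 alternatives computed for it. The Aire-driven median was −0.18 as the mean of batch ratios and 0.050 at day 4. Against the low-cycling cells, which were chosen on these genes, the cycling median became 0.82, Mki67 1.11, Cdk1 0.13 and Top2a 1.07. The cycling median was −1.73 with Sprr1a left out of the score, and 96% of the cells were EED-cKO with Spink5 left out. In an alternative chosen after seeing the data, each gene without its highest high-scoring cell, 0.928% of genes were higher and 17.8% lower, the further keratinocyte median was 1.01 and the Aire-driven median −0.69. The removal of cells from the high-scoring side alone tends to lower all ratios. Apart from that removal and the number of batches, the cause of these changes was not tested. No paired analysis was possible because the cell numbers of the genotypes mark no shared source, and batches are nested in genotype. Within EED-cKO each batch holds both classes of cells, and the mean of the batch ratios, which compares them within batches, gave a further keratinocyte median of 1.32 with 25 genes higher, an Aire log2 ratio of 0.30 and a cycling median of −3.65, beside the reversed Aire-driven median above.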
